A study of Homo sapiens with 11 samples.

Results

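Among 60605 features counted in ARPE-19 cells, 9 genes of the TGF-beta system were examined. They were picked by symbol from the deposited table: the ligand genes TGFB1, TGFB2, TGFB3 and INHBA, the receptor genes TGFBR1 and TGFBR2, the matrix gene LTBP2, the inhibitor SMAD7 and the target TGFBI. All 9 were found and all 9 passed the filter on low values. ARPE-19 is an established human cell line of retinal pigment epithelium (RPE), the pigmented cell layer behind the photoreceptors. Stable cells expressed an introduced open reading frame (ORF) for 4 days: GFP, a fluorescent protein that serves as control (n = 3 libraries), a single reprogramming factor, Oct4, Sox2 or Klf4, or the 3 factors together (OSK; n = 2 libraries each). Polyadenylated RNA was sequenced, and the design text names candidate oxidative effectors as what the authors plotted from it.

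The labels give every library as ARPE-19 and name neither the promoter, the vector nor the species of the ORFs, nor whether libraries came from separate cultures or clones. P-values therefore measure the spread between libraries, which may be technical. The names of the factor libraries carry the tag mC, which the GFP names lack and the labels do not explain.

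TGF-beta ligands are secreted in a latent form, held in the extracellular matrix with the help of latent TGF-beta binding proteins and set free by integrins, thrombospondin or proteases. An active ligand binds the type II receptor TGFBR2, which recruits and phosphorylates the type I receptor TGFBR1. TGFBR1 then phosphorylates SMAD2 and SMAD3, which enter the nucleus with SMAD4 and act on target genes, among them the gene of their own inhibitor, SMAD7. In RPE cells the pathway is known for loss of epithelial features, matrix production and a change towards a contractile mesenchymal state, as in proliferative vitreoretinopathy.

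Values are normalised counts, the authors' gene counts divided by a factor per library, and libraries held 15053300 to 19791775 recovered reads. The delivered factor genes were highest where the labels place them: POU5F1, which encodes Oct4, was at 67074 ± 356 with Oct4 and 19281 ± 369 in OSK (SD, n = 2 each) against 263 ± 12.1 in GFP (SD, n = 3). SOX2 was at 29123 ± 24.4 with Sox2 and 17673 ± 129 in OSK against 62.0 ± 19.4, and KLF4 at 23173 ± 1459 with Klf4 and 24336 ± 189 in OSK against 72.1 ± 45.1. GFP replicate 1 and OSK replicate 1 stood apart, with 42956 and 32493 features detected against 25853 to 26971 in the others, and with 67.7% and 23.0% of 405 olfactory receptor genes detected against 4.94% to 8.15%. Of the RPE markers, RPE65 and TTR were at or near 0 in every library, whereas PMEL, TYRP1, MITF and OTX2 were present. The summed level of 12 defining RPE markers was 12858 to 16550 in GFP, 4421 to 5084 with Oct4, 2531 to 2587 with Sox2, 8540 to 10353 with Klf4 and 5740 to 6129 in OSK. The sum was made mostly of PMEL, MITF, TYRP1 and OTX2, and not every marker in it fell. RDH5 averaged 75.1 in GFP, 189 with Oct4, 74.7 with Sox2, 462 with Klf4 and 178 in OSK. OTX2 averaged 1881 in GFP, 1494 with Oct4, 1208 with Sox2, 2320 with Klf4 and 1970 in OSK. Summed, 6 epithelial markers were at 34036 to 37200 in GFP, 32480.5 to 33006 with Oct4 and 34619 to 38186 with Sox2. With Klf4 they were at 41106 to 43650, and in OSK at 30240 to 30563. The summed level of the proliferation markers MKI67, TOP2A and CCNB1 was 621 to 680 in GFP, 698 to 821 with Oct4, 1991 to 2007 with Sox2, 4718 to 5800 with Klf4 and 4273 to 4528 in OSK. Summed leukocyte markers (5 genes) reached 82.4 in GFP replicate 1 and at most 6.84 in the other libraries. Summed endothelial (3 genes) and photoreceptor (3 genes) markers were highest in the same library, at 124 and 54.6. The part of these shifts in the results below was not tested. In bulk RNA fewer cells of a type and less RNA per cell cannot be told apart.

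The factors moved the TGF-beta genes in different directions. With Sox2, INHBA, TGFBI, TGFB1, TGFBR2 and, by a small margin, TGFB2 rose, and SMAD7 and TGFBR1 fell. With Oct4, INHBA, TGFBI, TGFBR1, TGFBR2 and TGFB2 rose and SMAD7 fell. With Klf4 and in OSK only TGFBR2 of the 9 rose, while TGFB1, TGFB2, TGFBR1, LTBP2, SMAD7 and TGFBI fell. TGFBR2 was thus higher and SMAD7 lower than GFP under all 4 conditions, and TGFB3 passed the test under none. Differences were tested with limma on log2(normalised counts + 1) over 18828 genes, and a gene was called at a Benjamini-Hochberg adjusted p under 0.05.

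In numbers, 6 of the 9 genes were called with Oct4 (5 higher, 1 lower; median log2 change 0.46), where 37.3% of all tested genes were called. With Sox2 7 were called (5 higher, 2 lower; median 0.37) against 41.6% of all genes. With Klf4 7 were called (1 higher, 6 lower; median -0.74) against 33.5%, and in OSK also 7 (1 higher, 6 lower; median -0.90) against 39.7%. The median over all tested genes lay between -0.02 and -0.01 in these 4 comparisons. All 4 share the same GFP libraries, so their values are given side by side and are not independent.

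**Figure D1:**
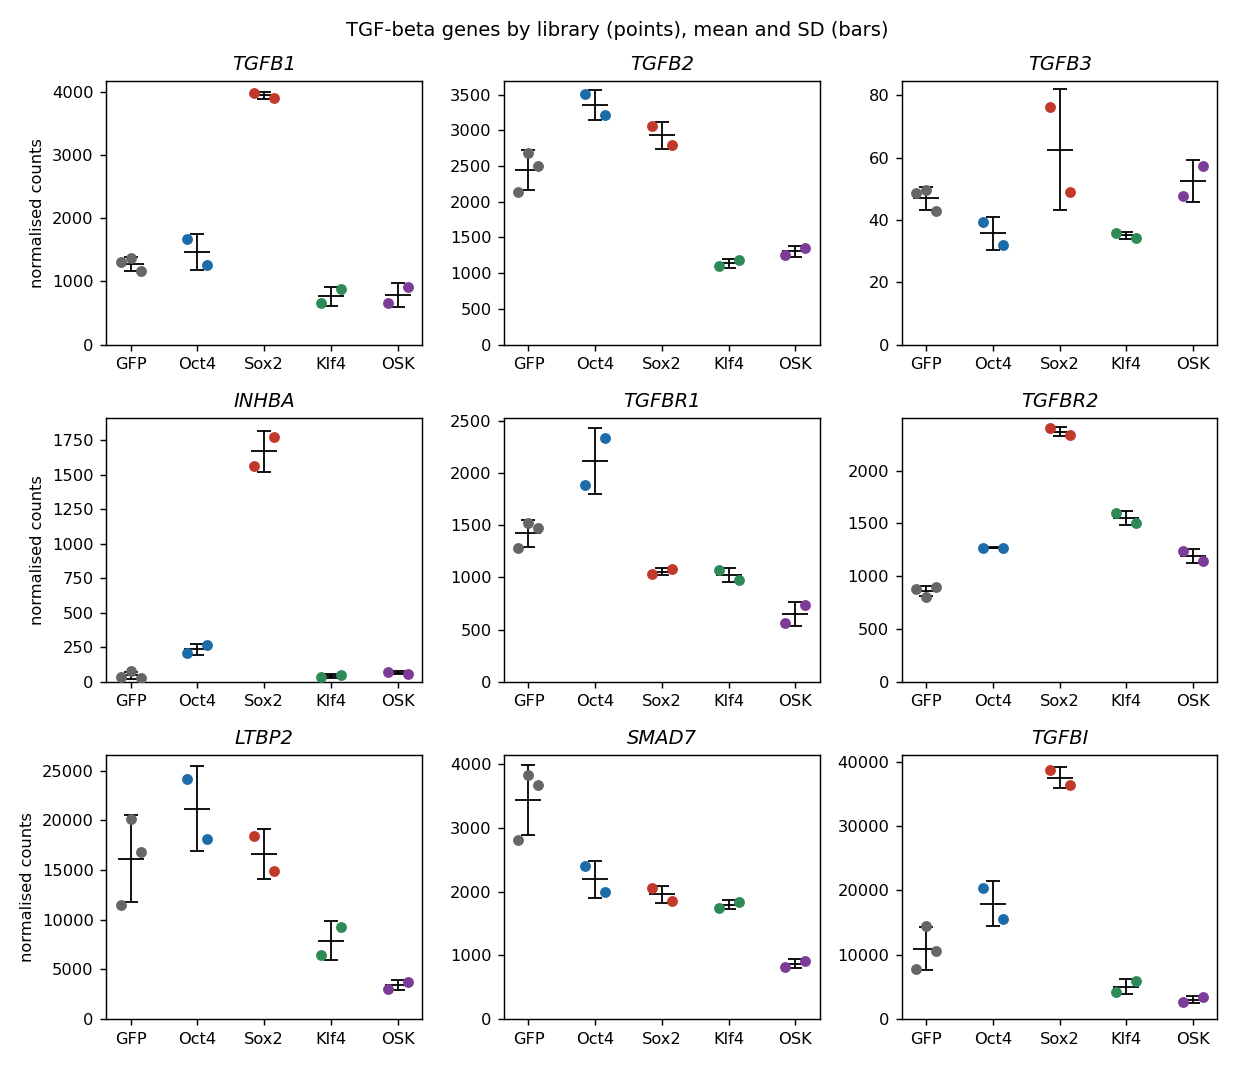
Normalised counts (vertical axis, from 0) of each TGF-beta gene in each library (points) by group (horizontal axis), with the mean and SD as bars. The Sox2 libraries lie far above all others for INHBA (1565 and 1777), TGFB1 and TGFBI, and the OSK libraries lie below all others for SMAD7 (818 and 914), LTBP2, TGFBR1 and TGFBI.

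**Figure D2:**
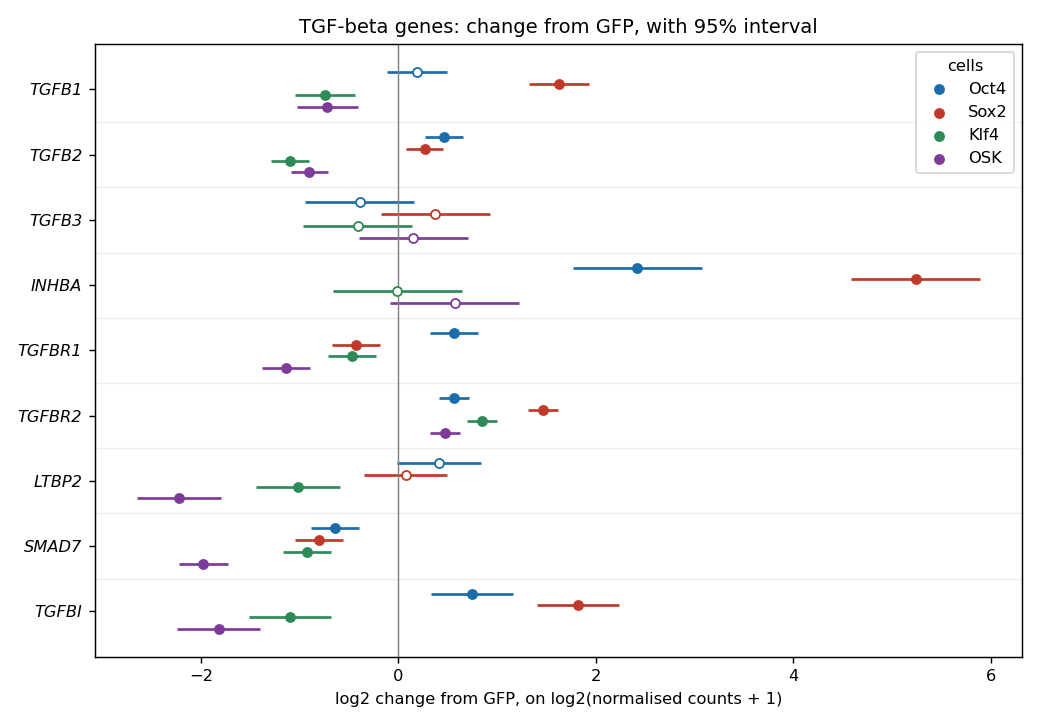
Log2 change from GFP (horizontal axis) of each gene with Oct4, Sox2, Klf4 and OSK, with the 95% confidence interval of the limma fit as a line. Filled points passed an adjusted p of 0.05 and open points did not; INHBA with Sox2 (5.24) is the farthest point, and TGFBR2 has all 4 points on the right of 0 and SMAD7 all 4 on the left.

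The stretches of DNA before the RefSeq starts of the 3 genes with the largest rises under Sox2 are shown because INHBA, TGFBI and TGFB1 also parted under Klf4: TGFBI and TGFB1 fell there, and the INHBA change did not pass the test. They come from RefSeq promoters of build GRCh38.p14, read from 5′ to 3′ along each gene and ending at the RefSeq start, or before it where GENCODE release 29 places an exon. For INHBA that start lies inside the longer GENCODE gene, downstream of the gene's GENCODE start, so this stretch is within the gene as GENCODE draws it. INHBA lies on chr7:41703109-41703340, minus strand (18 bases next to the start left out), TGFBI on chr5:136028738-136028894, plus strand (93 bases left out), and TGFB1 on chr19:41353923-41354172, minus strand. Capitals mark GC boxes (GGGCGG, or CCGCCC on the other strand) and CACCC boxes (CACCC, or GGGTG), letters of the kind that KLF family proteins are known to bind. Marks may touch, and the 2 CACCC boxes of TGFBI overlap and share a base.
INHBA: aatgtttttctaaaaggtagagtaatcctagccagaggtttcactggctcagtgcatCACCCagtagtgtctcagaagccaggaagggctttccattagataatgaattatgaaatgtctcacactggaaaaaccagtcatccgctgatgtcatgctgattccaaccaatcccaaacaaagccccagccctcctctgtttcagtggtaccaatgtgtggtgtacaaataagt
TGFBI: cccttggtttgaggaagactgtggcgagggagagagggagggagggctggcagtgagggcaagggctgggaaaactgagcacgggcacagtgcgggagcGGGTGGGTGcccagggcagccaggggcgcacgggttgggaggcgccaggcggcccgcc
TGFB1: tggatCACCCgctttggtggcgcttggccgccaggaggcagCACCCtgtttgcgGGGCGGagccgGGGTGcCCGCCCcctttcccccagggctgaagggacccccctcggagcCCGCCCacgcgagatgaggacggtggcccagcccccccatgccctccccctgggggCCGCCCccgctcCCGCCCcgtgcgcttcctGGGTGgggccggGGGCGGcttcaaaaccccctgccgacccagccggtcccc
The INHBA stretch has 44.0% G and C, no GC box and 1 CACCC box. The TGFBI stretch has 71.3% G and C, no GC box (3 lie in the bases left out) and 2 CACCC boxes, and the TGFB1 stretch has 76.8%, 6 GC boxes and 4 CACCC boxes. Over 35116 RefSeq promoter stretches of 250 bases the median was 58% G and C, 42.6% held a GC box and 54.7% a CACCC box on either strand. Entries were matched for all 9 genes. On both strands, none of their 250-base stretches held an AP-1 element (TGANTCA; 6.57% of all stretches did), the octamer ATGCAAAT (1.63%) or the palindromic SMAD element GTCTAGAC (0.182%). The SOX core ACAAT (24.6% of all) occurred in 1 of 8 TGFBR1 stretches and in no other. The SMAD box CAGAC (38% of all) occurred in stretches of TGFB2, TGFB3, TGFBR1 and SMAD7 and in none of INHBA, TGFBI, TGFB1, TGFBR2 or LTBP2. All 3 SMAD7 stretches lie within the gene as GENCODE draws it, and the bases before its GENCODE start were not searched. The absence of an element from these stretches therefore does not speak for that region. A match is a run of letters only, and no binding was measured.

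TGFB1, the ligand best known from fibrosis and immune control (chromosome 19, 41301587 to 41353911, minus strand, GRCh38), had the largest Sox2 rise of the 3 TGF-beta isoforms. It had 1303, 1365 and 1161 normalised counts in the GFP libraries, 1670 and 1266 with Oct4, 3984 and 3904 with Sox2, 660 and 873 with Klf4, and 654 and 916 in OSK. The Sox2 libraries lay far above the rest, the Klf4 and OSK libraries below all GFP libraries, and of the Oct4 libraries 1 lay within the GFP range and 1 above it. The mean was 3944 ± 56.3 (SD, n = 2) with Sox2 against 1276 ± 105 (n = 3) in GFP, 3.09-fold higher (log2 change 1.63, SE 0.14; limma adjusted p = 1.61e-07). TGFB1 fell by 0.74 on the log2 scale with Klf4 (limma adjusted p = 0.000771) and by 0.72 in OSK (limma adjusted p = 0.000789). The OSK fall was 0.47 without OSK replicate 1 (log2 change -0.47; limma adjusted p = 0.0335). Oct4 and GFP did not differ detectably (0.19, SE 0.14; limma adjusted p = 0.328), and nor did OSK and Klf4 (0.03, SE 0.16; limma adjusted p = 0.929). TGFB1 shares 215 of its 3238 exon bases with HNRNPUL1 on the opposite strand, which had 4609 to 5696 normalised counts, and whether counting used strand is not given in the sources used here, so reads in that overlap are uncertain.

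TGFB2, the isoform that prevails in the eye's vitreous (chromosome 1, 218346235 to 218444619, plus strand), did not share the large Sox2 rise. It had 2140, 2687 and 2501 normalised counts in GFP, 3503 and 3208 with Oct4, 3060 and 2794 with Sox2, 1094 and 1184 with Klf4, and 1249.9 and 1358 in OSK. Both Klf4 and both OSK libraries lay below every other library, and the Oct4 and Sox2 libraries lay above every GFP library. TGFB2 rose by 0.46 on the log2 scale with Oct4 (SE 0.09; limma adjusted p = 0.000719), and the levels with Oct4 and Sox2 did not differ detectably (0.20, SE 0.10; limma adjusted p = 0.145, and 0.0444 without GFP replicate 1). The Sox2 rise was small (0.27, SE 0.09; limma adjusted p = 0.0264). The call was lost on leaving out GFP replicate 1 (0.17; limma adjusted p = 0.0708) or Sox2 replicate 1 (0.20; limma adjusted p = 0.224), under TMM scaling over all features, unfiltered, and fitted on the Sox2 and GFP libraries alone (limma adjusted p = 0.0564, 0.0817 and 0.0629). With Klf4 TGFB2 fell by 1.09 (mean 1139 ± 63.3, SD, n = 2, against 2443 ± 278, n = 3; limma adjusted p = 1.42e-07) and in OSK by 0.90 (limma adjusted p = 8.04e-07). OSK and Klf4 did not differ detectably (0.20, SE 0.10; limma adjusted p = 0.191). TGFB2 shares 1371 of its 5151 exon bases with TGFB2-OT1 on the same strand, which had 0 normalised counts in every library. How reads in that overlap were counted is not given in the sources used here, so the TGFB2 level per exon length is uncertain.

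TGFB3, the third isoform (chromosome 14, 75958099 to 75982991, minus strand), was present at 28 to 68 reads per library. It had 48.7, 49.6 and 42.8 normalised counts in GFP, 39.5 and 32.1 with Oct4, 76.3 and 48.8 with Sox2, 35.9 and 34.3 with Klf4, and 47.7 and 57.2 in OSK. The libraries with Oct4 and Klf4 were the lowest, and the 2 Sox2 libraries were far apart from each other. No comparison with GFP passed the test: the log2 changes were -0.39, 0.37, -0.41 and 0.15 with Oct4, Sox2, Klf4 and OSK (SE 0.26 each; limma adjusted p from 0.255 to 0.694). The 95% intervals reached from -0.96 to 0.93 over these 4 comparisons, so changes of up to nearly 2-fold are not excluded. Of the comparisons among factors only Sox2 against Klf4 passed (0.78, SE 0.28; limma adjusted p = 0.0382), and it did not without Sox2 replicate 1 (0.47; limma adjusted p = 0.339), without Klf4 replicate 1 or 2 (limma adjusted p = 0.0967 and 0.121) or with DESeq2 (adjusted p = 0.112). With the replicate number as a block its limma adjusted p was 0.0526. Oct4 against Sox2 lay at the threshold (-0.76, SE 0.28; limma adjusted p = 0.0506), and passed without GFP replicate 1 (limma adjusted p = 0.0472) or Sox2 replicate 2 (-1.08; limma adjusted p = 0.0254).

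INHBA encodes the beta A subunit that pairs to form activin A, a ligand that signals through SMAD2 and SMAD3 by way of activin receptors (chromosome 7, 41667168 to 41705834, minus strand). It showed the largest change of the 9 genes. INHBA had 36.7, 76.9 and 28.2 normalised counts in GFP, 209 and 264 with Oct4, 1565 and 1777 with Sox2, 34.7 and 52.6 with Klf4, and 72.6 and 57.2 in OSK. The Sox2 libraries lay far above the Oct4 libraries, these lay above all others, and the GFP, Klf4 and OSK libraries overlapped. The mean with Sox2 was 1671 ± 150 (SD, n = 2) against 47.3 ± 26.0 (n = 3) in GFP, 35.3-fold higher (log2 change 5.24, SE 0.31; limma adjusted p = 1.45e-09). With Oct4 it was 237 ± 39.2, 5.01-fold higher (2.42, SE 0.31; limma adjusted p = 1.19e-05), and Sox2 exceeded Oct4 (Oct4 minus Sox2 -2.82, SE 0.34). In OSK, where both factors were delivered but had lower transcript levels than alone, the mean was 64.9 ± 10.9 and the change did not pass (0.57, SE 0.31; limma adjusted p = 0.161). That call rested on GFP replicate 2, the highest GFP library: without it the OSK change was 0.98 (limma adjusted p = 0.00266). Klf4 and GFP did not differ detectably (-0.01, SE 0.31; limma adjusted p = 0.98), and with TMM scaling over all features the sign turned (0.03).

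TGFBR1, the type I receptor kinase (chromosome 9, 99104038 to 99154192, plus strand), and TGFBR2, the type II receptor kinase that binds the ligand first (chromosome 3, 30606502 to 30694142, plus strand), both rose with Oct4 and moved in opposite directions with Sox2, Klf4 and OSK. TGFBR1 had 1277, 1519 and 1474 normalised counts in GFP, 1888 and 2337 with Oct4, 1033 and 1077 with Sox2, 1073 and 979 with Klf4, and 566 and 734 in OSK. The groups did not overlap, apart from Sox2 and Klf4. TGFBR1 rose by 0.57 on the log2 scale with Oct4 (SE 0.11; limma adjusted p = 0.000929) and fell by 1.14 in OSK (limma adjusted p = 7.68e-07). Smaller falls were seen with Sox2 (-0.43; limma adjusted p = 0.00623) and Klf4 (-0.47; limma adjusted p = 0.00439), levels that did not differ detectably from each other (0.04, SE 0.12; limma adjusted p = 0.828). The Sox2 fall did not pass without Sox2 replicate 1 (limma adjusted p = 0.0578) or with TMM scaling over all features (limma adjusted p = 0.0617), nor the Klf4 fall without Klf4 replicate 2 (limma adjusted p = 0.0588).

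TGFBR2 was higher than GFP under every condition. It had 876, 802 and 896 normalised counts in GFP, 1271 and 1267 with Oct4, 2403 and 2338 with Sox2, 1596 and 1501 with Klf4, and 1237 and 1146 in OSK. Every factor library lay above every GFP library, and Sox2 lay above Klf4, and Klf4 above Oct4 and OSK. The mean rose from 858 ± 49.5 (SD, n = 3) in GFP to 2370.4 ± 46.5 (n = 2) with Sox2, 2.76-fold (log2 change 1.47, SE 0.07; limma adjusted p = 1.82e-10). With the same SE, the rise was 0.85 for Klf4 (limma adjusted p = 1.74e-07), 0.57 for Oct4 (limma adjusted p = 1.14e-05) and 0.47 for OSK (limma adjusted p = 5.99e-05). OSK and Oct4 did not differ detectably (-0.09, SE 0.08; limma adjusted p = 0.389). Oct4 lay below Klf4 (-0.29, SE 0.08; limma adjusted p = 0.00764), but not past the threshold without Klf4 replicate 1 (-0.24; limma adjusted p = 0.0713) or with TMM scaling over all features (limma adjusted p = 0.0856).

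Within a library, the ratio of the receptor levels per exon length needs no scaling between libraries. TGFBR2 over TGFBR1 was 0.768 to 0.998 in GFP and 0.789 to 0.980 with Oct4, but 3.16 to 3.38 with Sox2, 2.16 to 2.23 with Klf4 and 2.27 to 3.18 in OSK. Per exon length the receptor transcripts were thus near parity in GFP and Oct4 cells. Type II was in excess in each library of the other groups. The length is the union of all exons of a gene, so parity rests on it, whereas the contrast between groups does not. TGFB1 over TGFB2, per exon length, was 0.738 to 0.969 in GFP, 0.628 to 0.758 with Oct4, 2.07 to 2.22 with Sox2, 0.960 to 1.17 with Klf4 and 0.832 to 1.07 in OSK. Both ligand genes share exon bases with another gene, as given above, so the size of this ratio is uncertain. An exact permutation test over the 5 groups (415800 arrangements of 11 libraries) gave p = 0.00248 for the receptor ratio and p = 0.00889 for the ligand ratio (adjusted over these 2 tests 0.00496 and 0.00889). This test asks only whether the groups differ somewhere, and the ratios were chosen with the values known.

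LTBP2 encodes a microfibril protein of the latent TGF-beta binding protein family, known from the eye's zonules (chromosome 14, 74498170 to 74612378, minus strand). It had 11491, 20137 and 16807 normalised counts in GFP, 24185 and 18128 with Oct4, 18429 and 14877 with Sox2, 6482 and 9304 with Klf4, and 3035 and 3733 in OSK. The OSK libraries were the lowest and the Klf4 libraries the next, both below every GFP library, and the GFP, Oct4 and Sox2 libraries overlapped. The mean in OSK was 3384 ± 493 (SD, n = 2) against 16145 ± 4361 (n = 3) in GFP, 4.77-fold lower (log2 change -2.22, SE 0.20; limma adjusted p = 2.26e-07). With Klf4 it fell by 1.02 (limma adjusted p = 0.000861), and OSK lay below Klf4 by a further step (OSK minus Klf4 -1.21, SE 0.22). The Oct4 change did not pass (0.41, SE 0.20; limma adjusted p = 0.12), though it did without GFP replicate 2 (0.59; limma adjusted p = 0.0264). Sox2 and GFP did not differ detectably (0.07, SE 0.20; limma adjusted p = 0.8).

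SMAD7, the inhibitory SMAD that directs ubiquitin ligases to the active receptor and is itself induced by the pathway (chromosome 18, 48919853 to 48952052, minus strand), fell under every condition. It had 2807, 3823 and 3669.6 normalised counts in GFP, 2397 and 1990.4 with Oct4, 2054 and 1857 with Sox2, 1742 and 1843 with Klf4, and 818 and 914 in OSK. Every factor library lay below every GFP library, and the OSK libraries lay well below all others. The mean was 866 ± 67.6 (SD, n = 2) in OSK against 3433 ± 548 (n = 3) in GFP, 3.96-fold lower (log2 change -1.97, SE 0.11; limma adjusted p = 1.82e-09). The single factors gave log2 changes of -0.64 for Oct4 (limma adjusted p = 0.000363), -0.80 for Sox2 (limma adjusted p = 3.33e-05) and -0.92 for Klf4 (limma adjusted p = 1.19e-05). The single factors did not differ detectably from each other, with limma adjusted p from 0.0834 to 0.474. Oct4 against Klf4 (0.29, SE 0.13) passed without GFP replicate 1 (limma adjusted p = 0.0108) and without Oct4 replicate 2 (0.42; limma adjusted p = 0.0442).

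TGFBI, a secreted matrix protein named for its induction by TGF-beta and known from corneal dystrophies (chromosome 5, 136028895 to 136063818, plus strand), set the 5 groups in a full order. It had 7830.1, 14404 and 10546 normalised counts in GFP, 20376 and 15489 with Oct4, 38673 and 36354 with Sox2, 4211 and 5843 with Klf4, and 2672 and 3362 in OSK. No group overlapped another: Sox2 was highest, then Oct4, GFP, Klf4 and OSK. The mean with Sox2 was 37514 ± 1639 (SD, n = 2) against 10927 ± 3303 (n = 3) in GFP, 3.43-fold higher (log2 change 1.82, SE 0.20; limma adjusted p = 1.49e-06). In OSK it was 3017 ± 488, 3.62-fold lower (-1.82, SE 0.20; limma adjusted p = 1.79e-06), and with Klf4 TGFBI fell by 1.09 (limma adjusted p = 0.000409). The Oct4 rise (0.75, SE 0.20; limma adjusted p = 0.00682) did not pass without Oct4 replicate 1 (0.55; limma adjusted p = 0.123) or with DESeq2 (adjusted p = 0.0539). OSK lay below Klf4 (-0.73, SE 0.21; limma adjusted p = 0.0233), but not past the threshold without Klf4 replicate 2 (-0.49; limma adjusted p = 0.227), without OSK replicate 1 (-0.56; limma adjusted p = 0.196), unfiltered (limma adjusted p = 0.081) or with DESeq2 (adjusted p = 0.101).

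Exon length here is the union of all GENCODE exons of a gene, 9091 bases for LTBP2 and 7810 for TGFBI. It can exceed the length of the expressed transcript, and TGFB1 and TGFB2 share exon bases with other genes. For both reasons the order of genes below is approximate. Compared per kilobase of exon, so that genes of different length can be set side by side, LTBP2 (1776 ± 480 normalised counts per kb) and TGFBI (1399 ± 423) were the most abundant of the 9 in GFP. SMAD7 (682 ± 109), TGFB2 (474 ± 54.0) and TGFB1 (394 ± 32.3) followed, then TGFBR1 (208 ± 18.8) and TGFBR2 (182 ± 10.5), with TGFB3 (9.56 ± 0.75) and INHBA (5.69 ± 3.13) lowest (SD, n = 3). With Sox2, TGFBI reached 4803 ± 210 per kb, TGFB1 1218 ± 17.4 and INHBA 201 ± 18.0 (SD, n = 2), so that INHBA came to the level that TGFBR1 has in GFP. In OSK, TGFBI (386 ± 62.5) and LTBP2 (372 ± 54.3) were still the highest of the 9.

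OSK was then compared with each single factor. Against Oct4, 7 of the 9 genes were lower in OSK and none higher (18.4% of all tested genes were higher and 21.9% lower, 40.3% together), and TGFB3 and TGFBR2 did not pass. Against Sox2, 8 were lower and none higher (of all genes 20.0% higher and 20.5% lower, 40.5% together), all but TGFB3, with log2 changes from -0.71 for TGFBR1 to -4.67 for INHBA. Against Klf4, 5 were lower and none higher (of all genes 9.56% higher and 11.9% lower, 21.5% together): TGFBR1 (-0.67), TGFBR2 (-0.38), LTBP2 (-1.21), SMAD7 (-1.05) and TGFBI (-0.73). The 4 ligand genes did not differ detectably between OSK and Klf4, with changes from 0.03 for TGFB1 to 0.58 for INHBA. Among the single factors, Sox2 exceeded Klf4 in 7 genes (none lower; of all genes 20.1% higher and 20.7% lower, 40.8% together), all but TGFBR1 and SMAD7. Oct4 exceeded Klf4 in 6 and fell below it in 1, TGFBR2 (of all genes 21.8% higher and 20.0% lower, 41.7% together). Oct4 exceeded Sox2 in TGFBR1 only (0.99, SE 0.12) and lay below it in TGFB1, INHBA, TGFBR2 and TGFBI, 5 calls in all (of all genes 18.0% higher and 15.4% lower, 33.4% together).

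The Oct4, Sox2 and Klf4 log2 changes of each gene were added up and compared with its change in OSK. The sum is the value that would hold if the factors acted additively on this scale at the levels they had alone. Their levels differed: POU5F1 was at 19281 in OSK against 67074 with Oct4, and SOX2 at 17673 against 29123 with Sox2. KLF4 was at 24336 in OSK against 23173 with Klf4. The part of these levels in the differences below was not tested. OSK lay below the sum for 7 genes and above it for none (of all tested genes 15.6% lay above and 20.3% below, 35.9% together). INHBA was the farthest off: its single changes summed to 7.65, and OSK showed 0.57 (difference -7.08, SE 0.61; limma adjusted p = 2.79e-07). For TGFBI the sum was 1.47 and OSK -1.82 (difference -3.30, SE 0.39; limma adjusted p = 7.53e-06), and for TGFB1 1.08 and -0.72 (-1.79, SE 0.29; limma adjusted p = 0.00014), so both lay on opposite sides of GFP. For TGFBR2 the sum was 2.88 and OSK 0.47 (-2.41, SE 0.14; limma adjusted p = 5.08e-09). LTBP2 lay below the sum by a difference of -1.69 (limma adjusted p = 0.00334), TGFBR1 by -0.81 (limma adjusted p = 0.0111) and TGFB2 by -0.53 (limma adjusted p = 0.0302). SMAD7 was the gene nearest to additivity, with a sum of -2.36, an OSK change of -1.97 and a difference that did not pass (0.39, SE 0.23; limma adjusted p = 0.208). TGFB3 did not pass either (0.58, SE 0.52; limma adjusted p = 0.423).

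These differences draw on all 11 libraries. Without GFP replicate 1 and OSK replicate 1 together, TGFB2 (-0.29; limma adjusted p = 0.173) and TGFBR1 (-0.47; limma adjusted p = 0.0765) no longer passed, LTBP2 was at -1.09 (limma adjusted p = 0.0172), and SMAD7 passed above the sum (0.75; limma adjusted p = 0.00444). SMAD7 also passed without GFP replicate 1 alone (0.67; limma adjusted p = 0.00503). With 1 library left out at a time, only TGFB2 of the 7 lost its call: without GFP replicate 1 (-0.35; limma adjusted p = 0.0759), without replicate 1 of Oct4, Sox2 or OSK or replicate 2 of Klf4 (limma adjusted p = 0.0842, 0.0877, 0.0839 and 0.0782). It also lost it with edgeR's median-of-ratios factors, TMM scaling over all features or no filter (adjusted p = 0.0509, 0.0745 and 0.0923). The median of this contrast over all genes was -0.02, and -0.14 with TMM scaling over all features.

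**Figure D3:**
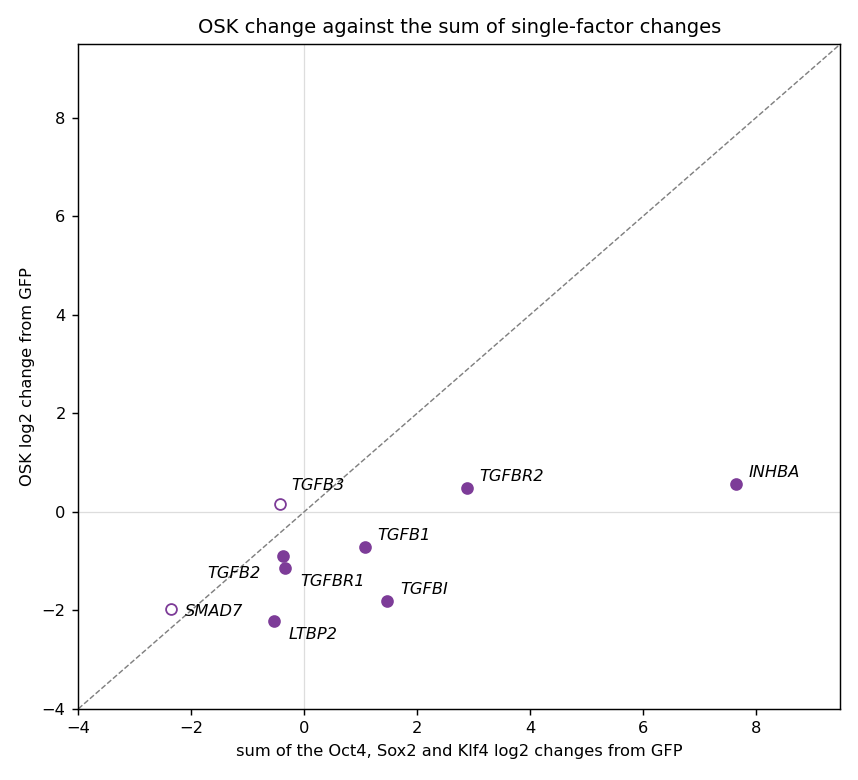
OSK log2 change from GFP (vertical axis) against the added single-factor log2 changes (horizontal axis), 1 point per TGF-beta gene, with the dashed line where both are equal. Filled points differ from the sum at an adjusted p of 0.05; INHBA lies farthest to the right of the line (7.65 against 0.57), SMAD7 (open) lies nearest to it, and TGFB3 is the other open point.

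The rest of the pathway was taken from a list of 79 other genes in 5 roles, of which 68 passed the filter. The list was written with earlier results of these data known, so its counts are a description only. With Oct4 42 were called (33 higher, 9 lower) and with Sox2 52 (40 higher, 12 lower), whereas with Klf4 36 (14 higher, 22 lower) and in OSK 43 (13 higher, 30 lower) were. Target genes showed the split most clearly: of 31 listed and 29 tested, 15 were higher and 3 lower with Oct4 (median log2 change 0.79), 19 and 6 with Sox2 (1.56), 4 and 14 with Klf4 (-0.62), and 4 and 17 in OSK (-0.76). Of all tested genes, 20.1%, 21.7%, 17.6% and 19.7% were called higher and 17.2%, 19.9%, 16.0% and 20.0% lower in the same order.

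Among the targets, TGM2, a matrix crosslinking enzyme, rose by log2 changes of 4.24 with Oct4 and 4.29 with Sox2. FN1, the matrix glycoprotein fibronectin, rose by 3.31 with Oct4, and ACTA2, smooth muscle actin, by 2.76. IGFBP3, which binds insulin-like growth factors, rose by 3.41 with Sox2. With Klf4 and in OSK the actin-binding TAGLN fell (-1.85 and -2.48), and in OSK so did COL1A1, a fibrillar collagen chain (-2.50), and CTHRC1 (-3.31), a secreted matrix protein at 6.50 and 7.70 normalised counts there. JUNB, a subunit of AP-1, went the other way with Klf4 (1.91, SE 0.13).

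In the latency and activation group, LTBP1, which anchors latent TGF-beta in the matrix, rose by 1.03 with Oct4 and 3.06 with Sox2 (338, 356 and 373 normalised counts in GFP against 3021 and 2905). THBS1, the activator thrombospondin-1, rose with Oct4 (1.35) and Sox2 (1.51) and fell with Klf4 (-0.61) and in OSK (-1.29). The Klf4 fall of THBS1 did not pass without Klf4 replicate 1 (-0.58; limma adjusted p = 0.0677). ITGB8, a subunit of an activating integrin, fell with Oct4 (-1.23) and rose with Klf4 (0.95) and in OSK (1.20). With Sox2 ITGB8 also lay above every GFP library, at 5025 and 4689 normalised counts against 2962, 2395 and 2783. LTBP4 rose with Klf4 (0.79), and LRRC32, which displays latent TGF-beta on the cell surface, rose with Sox2 (2.08) and fell in OSK (-1.88, and -1.23 with a pseudocount of 8). In this group 6 were higher and 1 lower with Oct4, 7 and 0 with Sox2, 3 and 2 with Klf4 and 2 and 3 in OSK, of 9 tested. The share of all tested genes called in either direction was 37.3%, 41.6%, 33.5% and 39.7% in that order.

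Among other ligands and soluble antagonists (12 listed, 6 tested), FST, the activin-binding protein follistatin, had 39.7, 31.4 and 22.4 normalised counts in GFP, 65.0 and 45.8 with Oct4, 165 and 241 with Sox2, and 305 and 252 in OSK. FST rose with Sox2 (2.68, SE 0.27) and in OSK (3.15, SE 0.27). The small Oct4 rise (0.83; limma adjusted p = 0.0269) did not pass without GFP replicate 3 (0.61; limma adjusted p = 0.102), without Oct4 replicate 1 (0.58; limma adjusted p = 0.245), unfiltered, fitted on the Oct4 and GFP libraries alone, or with the replicate block (limma adjusted p = 0.0663, 0.0891 and 0.129). With Sox2 FSTL3, a second activin antagonist, lay below every GFP library, at 14875 and 15025 normalised counts against 16458, 21926 and 20013. FSTL3 fell with Klf4 (-0.79) and in OSK (-1.97) and, by less, with Oct4 (-0.36). That Oct4 fall did not pass without Oct4 replicate 2 (-0.25; limma adjusted p = 0.167), fitted on those libraries alone (limma adjusted p = 0.0698) or with TMM scaling over all features (limma adjusted p = 0.153). LEFTY2, a nodal antagonist, was at 118 and 121 with Sox2 against 17.9, 6.07 and 6.80 in GFP, and at 3.25 and 0 in OSK, where the lower level did not pass without OSK replicate 2 (-1.25; limma adjusted p = 0.192) or fitted on the OSK and GFP libraries alone (limma adjusted p = 0.0835). GDF11, a ligand of the activin branch, rose with Sox2 (0.57), though not past the threshold without Sox2 replicate 1 (0.44; limma adjusted p = 0.134), and fell with Klf4 (-1.25). In OSK GDF11 lay above every GFP library, at 1399 and 1417 normalised counts against 775, 711 and 690 in GFP. BGN, a matrix proteoglycan, averaged 24.7 normalised counts with Klf4 and 1.33 in GFP, too few reads for a fold change.

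Among other receptors (8 listed, 7 tested), the co-receptor TGFBR3, which presents TGFB2 to the type II receptor, had 2533, 1710 and 1969 normalised counts in GFP, 569 and 453 with Oct4, and 251 and 170 with Sox2. It fell with Oct4 (-2.01, SE 0.16) and with Sox2 (-3.30, SE 0.16). The Klf4 rise of TGFBR3 (0.51; limma adjusted p = 0.0209) did not pass without Klf4 replicate 1 or 2 or GFP replicate 2 or 3 (limma adjusted p from 0.0601 to 0.112), with no filter or with DESeq2. BAMBI, a pseudoreceptor that blocks signalling, fell with Sox2 (-1.72), Klf4 (-0.77) and in OSK (-1.67). With Oct4 BAMBI also lay below every GFP library, at 1657 and 1458 normalised counts against 1967, 2022 and 2123. The activin type I receptor ACVR1B fell with Klf4 (-0.89) and in OSK (-0.83). With Sox2 ACVR1B was at 591 and 573 normalised counts against 705, 729 and 754 in GFP. With Oct4 the receptor gene ACVR1C rose (1.98), though not clearly so without Oct4 replicate 1 (1.59). ACVR1C had few reads, at 47.6 and 27.5 normalised counts with Oct4 against 7.94, 11.1 and 6.80 in GFP, so the size of its rise is uncertain. The activin type II receptor ACVR2A rose with Oct4 (0.43) and Sox2 (0.55), the Oct4 rise not passing without Oct4 replicate 2 (0.41; limma adjusted p = 0.0689).

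Of 17 SMADs and regulators, all tested, 9 were higher and 2 lower with Oct4, 9 and 2 with Sox2, 5 and 2 with Klf4, and 5 and 6 in OSK. In the same order 37.3%, 41.6%, 33.5% and 39.7% of all tested genes were called in either direction. With Oct4 the feedback inhibitors PMEPA1 (1.31) and SKIL (0.75) and the ubiquitin ligase SMURF2 (0.86) rose, while SMAD7, also a feedback inhibitor, fell. With Sox2 LDLRAD4 (2.10) and the ligase gene NEDD4L (1.81), both known as brakes on SMAD signalling, rose and the corepressor TGIF1 (-1.27) fell. TGIF1 also fell with Klf4 (-0.91) and in OSK (-0.65), and NEDD4L (0.52) and the phosphatase gene PPM1A (0.47) rose with Klf4. In OSK TGIF2 (-0.77) and LDLRAD4 (-0.68) fell, TGIF2 by 0.50 without OSK replicate 1 (log2 change -0.50). All changes named in these pathway paragraphs had a limma adjusted p of at most 0.0269.

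**Figure D4:**
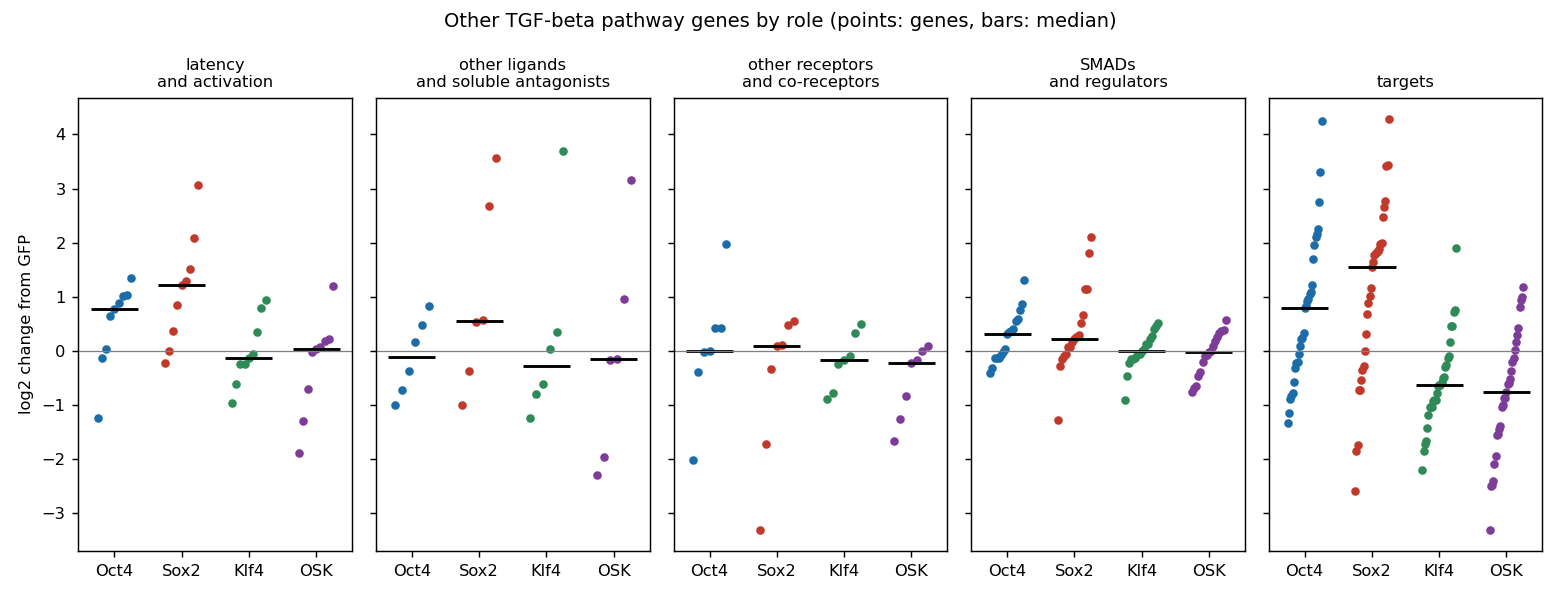
Log2 change from GFP (vertical axis) of the 68 tested pathway genes other than the 9 above, in 5 roles (panels), with Oct4, Sox2, Klf4 and OSK (horizontal axis). Each point is a gene and the bar is the median; in the targets panel the medians are 0.79, 1.56, -0.62 and -0.76.

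As a description, the genes whose level followed each TGF-beta gene most closely over the 11 libraries were found by Pearson r of log2 values, among 10910 genes with a mean of at least 100 normalised counts. The libraries share their groups, so a high r mostly reflects the 5 group levels. TGFBI was followed by DENND2B (r = 0.996) and the matrix protease gene MMP2 (0.988). SMAD7 was followed by the protease gene CTSH (0.990) and PALM (0.987), TGFB2 by ZDHHC1 (0.991) and EVA1A (0.987), and TGFB1 by C2orf27A (0.989) and the pseudogene TOMM40P4 (0.983), both of which can share reads with close copies. For INHBA the nearest were PAFAH1B2 (0.982) and SSR3 (0.978), for LTBP2 the growth factor gene PDGFC (0.982) and CERS2 (0.977), for TGFBR2 TBC1D2B (0.976) and the cyclin gene CCND1 (0.969), and for TGFBR1 NTPCR (0.973) and the elastic fibre gene FBLN5 (0.956). TGFB3, with 28 to 68 reads per library, had the loosest match, DSEL at 0.907 and MANBA at 0.897.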

How the data were processed

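Polyadenylated RNA of 11 ARPE-19 libraries was extracted with TRIzol and made into libraries with the NEBNext Ultra II RNA kit, per the labels' protocols. The submitters' processing notes name STAR 2.7.1a and featureCounts 1.6.2, and both human (GRCh38, hg38) and mouse (GRCm38, mm10) builds without saying which applied here. The annotation, the use of strand and the normalisation are not given in the sources used here.

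The deposited signal consists of normalised counts; judged from its steps, the authors divided each library's gene counts by 1 factor. In each library 100% of values up to 200 were whole multiples of 1 read within 0.0061, so reads were recovered. Genes with at least 10 in at least 2 libraries (18828) entered limma 3.58.1 (trend; R 4.3.3) as log2(value + 1), a scale that understates changes of low genes. All 11 libraries entered 1 fit with a mean per group (6 residual and 9.21 prior degrees of freedom), with Benjamini-Hochberg adjustment over all tested genes. On recovered reads edgeR 4.0.16 (TMM) called 6774 genes with Oct4, 7834 with Sox2, 6048 with Klf4 and 7232 in OSK, against 7018, 7824, 6315 and 7471 with limma. Replicates differed beyond sampling noise (mean chi-square per feature from 3.32 to 13.2) and were kept apart. The procedure was tested on simulated data.

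The genes, the pathway list (written from general knowledge) and the tests were chosen with earlier results of these data known. Pathway genes were named by rule: per role and comparison with GFP, at most 3 with the largest absolute change among those called without overlap between groups. A named gene can therefore have changed in a comparison where no change is given. Levels in such a group were added for GDF11, ITGB8, FSTL3, BAMBI and ACVR1B. A gene that this rule also names is not reported here. For each of the 9 genes the 2 genes with the highest r were named. Gene positions and exon lengths came from GENCODE release 29 (GRCh38) and promoters from RefSeq (GRCh38.p14).

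Alternatives were edgeR with TMM or median-of-ratios factors, DESeq2 1.42.0, TMM scaling over tested genes, a pseudocount of 8, no filter (48093 features), a mean CPM of at least 1 (14983 genes), a fit of the compared groups alone, a replicate block, and the omission of each library. TMM scaling over all features, and leaving out GFP replicate 1 with OSK replicate 1, were added after the data were seen.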

Additional observations from a re-analysis of the deposited data

How the results depend on the processing

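Over 99 log2 changes of the 9 TGF-beta genes and 2169 alternative values, 2106 kept their direction and side of the threshold, 34 lost the call, 16 gained it and 13 turned sign, all of these for changes that did not pass. Of 1271 alternative values for 58 named pathway changes 20 lost the call and none turned. The counts of called genes among the 9 and in the pathway list stayed within 1.5 times under every alternative run. Over all genes the count moved by more only for OSK against Klf4, from 4049 to 2580 without Klf4 replicate 1 and to 2539 without OSK replicate 2. Leaving out 1 library gave 5 to 7 of the 9 genes called with Oct4, 5 to 7 with Sox2, 6 to 7 with Klf4 and 7 to 8 in OSK, and 6 to 7 against the sum of single changes. For the pathway list it gave 35 to 45, 43 to 53, 29 to 43 and 35 to 44.

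The sign turned for LTBP2 with Sox2 (from -0.15 to 0.25 over left-out libraries, -0.15 without GFP replicate 1 and OSK replicate 1), for INHBA with Klf4 (-0.31 to 0.40, and 0.0301 with TMM scaling over all features) and for TGFB1 with Oct4 (-0.0083 to 0.39). Among factors it turned for TGFB3 in OSK against Sox2 (-0.54 to 0.10) and Oct4 against Klf4 (-0.13 to 0.17), TGFB1 in OSK against Klf4 (-0.22 to 0.27) and TGFBR1 in Sox2 against Klf4 (-0.0249 to 0.11). The cause was not tested.

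Leaving out a factor library leaves 1 in its group, which is then assumed to vary like the others. Replicate numbers marked no shared deviations among the factor groups, OSK included, or between GFP and single factors (r from -0.069 to 0.042). Between GFP and OSK r was 0.435 for replicate 1 and 0.310 for replicate 2. In groups of 2 the replicates deviate as mirror images, so pairs of such groups give the same r for both numbers. With the replicate block 6, 7, 7 and 7 of the 9 genes were called with Oct4, Sox2, Klf4 and OSK, and 6072, 7051, 5322 and 6469 of all genes. Of the 99 changes it moved 1 call, TGFB3 in Sox2 against Klf4 (limma adjusted p = 0.0526). Over left-out libraries the exact permutation p was 0.0027 to 0.0138 for the receptor ratio and 0.00675 to 0.0222 for the ligand ratio.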
